A study of Mus musculus with 14 samples.

Results

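Egfr, the gene of the epidermal growth factor receptor, was followed in the liver of Snell dwarf mice and wild type mice at 6 and 22 months of age. It is 1 of 8252 genes named by the array annotation, and was measured by all the probe sets with that symbol: 3 of the 12488 on the array, 101842_g_at, 101841_at and 101840_at. The gene was chosen by its low signal in dwarf mice in these same data, so the difference between genotypes is described and not tested. The change with age and the other genes of the receptor's pathway were tested. The pathway lists were drawn up with earlier results of these data known, so their tests were not blind to the data.

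Liver total RNA had been put on Affymetrix mouse arrays, 1 mouse to an array. Snell dwarf mice carry a mutation in Pit-1, the pituitary transcription factor also called Pou1f1, and their pituitary lacks the cell types that release growth hormone, prolactin and thyrotropin. The mutation removes these hormones together and throughout the body, so their parts cannot be told apart in these groups. The wild type mice were 82, 84, 86 and 88 at 6 months (n = 4) and 1, 2 and 24 at 22 months (n = 3). The dwarf mice were 83, 85, 87 and 89 at 6 months (n = 4) and 3, 4 and 8 at 22 months (n = 3). The labels used here name no sex, strain, treatment or batch.

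EGFR is a receptor tyrosine kinase of the ErbB family. It binds EGF, TGF-alpha, HB-EGF and related ligands, pairs with itself or with another ErbB receptor, and signals through adaptor proteins to the Ras and ERK kinases, to PI3K and to STAT factors. Feedback inhibitors such as the product of Errfi1 block the active kinase, and endocytic proteins such as Eps15 carry the bound receptor into the cell. Hepatocytes are among the cells richest in this receptor, which takes part in liver regeneration, and its level in rodent liver is known to depend on growth hormone.

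The sequence just before the annotated start of Egfr is shown because the whole report turns on the RNA level of this 1 gene. It is the 250 bases at chr11:16751953-16752202, plus strand, of build GRCm38.p6, from RefSeq, written 5′ to 3′. Capitals mark TCCTCC, a repeat picked after the sequence had been read.
Egfr: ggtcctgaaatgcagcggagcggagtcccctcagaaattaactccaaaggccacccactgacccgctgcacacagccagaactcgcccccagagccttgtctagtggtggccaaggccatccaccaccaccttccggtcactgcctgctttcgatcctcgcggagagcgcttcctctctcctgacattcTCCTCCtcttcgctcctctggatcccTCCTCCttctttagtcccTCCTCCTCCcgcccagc
The window had a GC content of 60.8%, against a median of 52.4% over 32851 such windows of mouse genes, and held 11 CpG. Its last 100 bases were 78% pyrimidine, and 99.6% of windows were lower in that share. TCCTCC occurred 4 times, with first bases at -61, -35, -17 and -14 from the start, the last pair overlapping. It occurs in 29.2% of windows on either strand. GGGCGG, the GC box, occurred 1 time, at -9 on the other strand, where it overlaps the last TCCTCC, and is in 32.7% of windows. TATAAA (in 12.4% of windows), CCAAT (33.8%), AGGTCA (14%) and TTCNNNGAA, the palindrome that STAT5 binds (7.02%), were not found in these letters on either strand.

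Egfr RNA was plain in all wild type livers and near or below the floor of the signal scale in all dwarf livers. On 101842_g_at, the Egfr probe set with the highest mean log2 signal, wild type mice of 6 months had signals of 1156, 1200.2, 1371 and 1372 (mice 82, 84, 86 and 88). Dwarf mice of that age had 61.8, 56.9, 37.9 and 50.9 (mice 83, 85, 87 and 89). At 22 months the wild type signals were 753, 1104 and 1769 (mice 1, 2 and 24) and the dwarf signals 46.7, 32.9 and 43.4 (mice 3, 4 and 8). The genotypes did not overlap: the lowest of 7 wild type mice, at 753, was far above the highest of 7 dwarf mice, at 61.8. A floor of 54.9, the 25th percentile of all signals, was set under every value before log2 was taken, and 5 of the 7 dwarf values lay under it.

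On the second probe set, 101841_at, the 6-month wild type signals were 807, 1133, 1511 and 751 (mice 82, 84, 86 and 88). The dwarf signals were 19.4, 23.7, 45.3 and 30.1 (mice 83, 85, 87 and 89). At 22 months they were 881, 1058 and 1389 in wild type mice 1, 2 and 24 and 10.1, 10.1 and 24.4 in dwarf mice 3, 4 and 8. All 7 dwarf values were under the floor, so this probe set gives only a bound on how far Egfr was lower.

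The third, 101840_at, rests on another transcript record than the first pair, which share theirs. At 6 months it read 410, 349, 473 and 557 in wild type mice 82, 84, 86 and 88 and 82.9, 39.3, 84.5 and 57.8 in dwarf mice 83, 85, 87 and 89. At 22 months it read 453, 405 and 994 in wild type mice 1, 2 and 24 and 98.1, 96.3 and 89.8 in dwarf mice 3, 4 and 8. Here only 1 of 7 dwarf values was under the floor, and again no dwarf mouse reached the lowest wild type mouse (349 against 98.1).

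**Figure D1:**
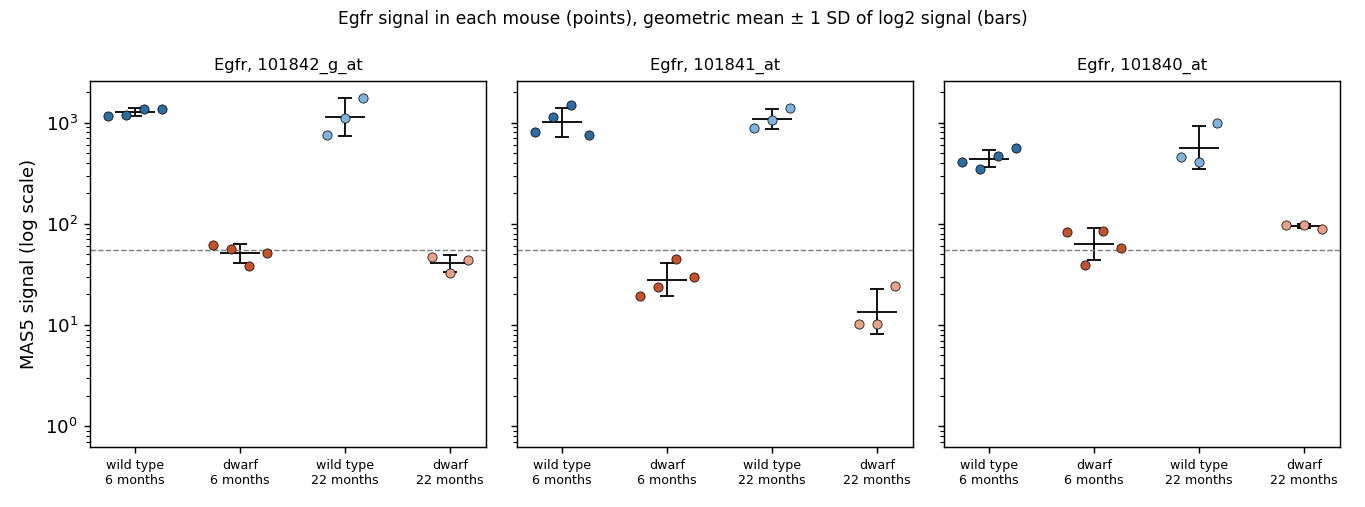
MAS5 signal (log scale) of the 3 Egfr probe sets, 1 point per mouse, with the geometric mean and 1 SD of the log2 signal of each group as bars. The dashed line is the floor at 54.9. In each panel all wild type points lie above all dwarf points, and only on 101840_at do most dwarf points stand above the floor.

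The genotype difference read larger on the first pair of probe sets than on 101840_at at both ages. The log2 difference in floored signal, dwarf minus wild type, with its limma standard error, was -4.48 ± 0.22 on 101842_g_at at 6 months (n = 4 and 4), with 2 of 4 dwarf values at the floor. On 101841_at it was -4.20 ± 0.23, at least 18.4-fold lower. On 101840_at it was -2.68 ± 0.29, or 6.42-fold lower. At 22 months (n = 3 and 3) the same differences were -4.37 ± 0.26, -4.31 ± 0.27 and -2.58 ± 0.33. The fold was at least 20.7 on 101842_g_at and at least 19.8 on 101841_at, and 5.99 on 101840_at, where no 22-month value was under the floor. Dwarf values set to the floor add little or no spread to the standard errors on 101842_g_at and 101841_at. All of these differences describe the contrast for which the gene was chosen. Of the 7227 probe sets tested at 6 months, 13.3% passed at an adjusted p under 0.05, and at 22 months 2.93%. Nothing is read from the place of Egfr among them.

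Ratios of the plain group means, without the floor, spread the probe sets further apart. At 6 months the wild type mean was 24.6 times the dwarf mean on 101842_g_at, 35.5 times on 101841_at and 6.76 times on 101840_at. At 22 months the ratios were 29.5, 74.6 and 6.52. The denominators of the first pair lie under the floor, where signals carry little information, so these larger ratios have no firm size. Nearest neighbours across genotype gave smaller ratios: the lowest wild type over the highest dwarf signal was 18.7, 16.6 and 4.13 at 6 months and 16.1, 36.1 and 4.12 at 22 months, in the order 101842_g_at, 101841_at and 101840_at.

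Wild type mice also differed among themselves. At 6 months the highest wild type signal was 1.19 times the lowest on 101842_g_at, 2.01 times on 101841_at and 1.60 times on 101840_at. At 22 months these ratios were 2.35, 1.58 and 2.46. Mouse 24 was the highest of the 3 old wild type mice on all 3 probe sets. Among the young wild type mice the probe sets ranked the animals differently: mouse 88 was the highest on 101842_g_at and 101840_at and the lowest on 101841_at. Over the 14 arrays the floored log2 signals of 101841_at and 101840_at followed those of 101842_g_at with Pearson r of 0.993 and 0.968 (Spearman 0.862 and 0.798). The wild type and dwarf arrays form separate clusters, and the distance between them carries these values.

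In wild type mice no change of Egfr with age passed the test. The log2 difference, 22 minus 6 months, was -0.16 ± 0.24 on 101842_g_at (95% interval -0.67 to 0.35, adjusted p = 0.783). It was 0.11 ± 0.25 on 101841_at (-0.42 to 0.64, adjusted p = 0.855) and 0.36 ± 0.31 on 101840_at (-0.30 to 1.03, adjusted p = 0.59). The standard errors draw on the spread of all 4 groups, and dwarf values set to the floor add little or none. The intervals on 101842_g_at and 101841_at may therefore be too narrow. With limma fitted to the wild type groups alone the adjusted p was 0.784, 0.854 and 0.586 in the same order. The background is 2.49% of probe sets that passed for age in wild type mice. The 3 old wild type mice bracketed the 4 young ones on 101842_g_at, with mouse 1 below all of them and mouse 24 above. Without mouse 24 the difference on this probe set was -0.48, and without mouse 1 it was 0.14. These intervals reach from a fall to a rise, so they do not show that the level was the same at both ages.

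In dwarf mice, where every Egfr signal was below the level that let these probe sets into the test through wild type mice, a change with age could be read only on 101840_at, the 1 set above the floor in most animals. It differed by 0.46 ± 0.31 (-0.20 to 1.13, adjusted p = 0.322). All 3 old dwarf mice (89.8 to 98.1) read higher than all 4 young ones (39.3 to 84.5), and the test did not pass. On 101842_g_at 5 of the 7 dwarf values were at the floor and on 101841_at all 7, and changes under the floor are not seen in floored values, so no age test is given for them. Their plain means were 51.9 ± 10.3 (SD, n = 4) at 6 and 41 ± 7.21 (SD, n = 3) at 22 months on 101842_g_at, and 29.6 ± 11.3 and 14.9 ± 8.26 on 101841_at. For age in dwarf mice 16.5% of probe sets passed. The test of whether the genotype difference itself changed with age gave 0.10 ± 0.44 on 101840_at (-0.84 to 1.04, adjusted p = 0.951), where 2.19% of probe sets passed.

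By group mean, 101842_g_at ran from young wild type (1275 ± 113) through old wild type (1209 ± 516) and young dwarf (51.9) to old dwarf (41). The first pair and the last pair of that order overlapped, and the step between them did not. On 101841_at and 101840_at the old wild type mean was the higher of the first pair, at 1109 ± 258 against 1050 ± 350 and 617 ± 327 against 447 ± 88.9, and these pairs overlapped. The dwarf pair overlapped on 101841_at, under the floor, and did not on 101840_at, where old dwarf mice (94.7 ± 4.37) stood above young ones (66.1 ± 21.7). Whole liver was measured, so fewer cells of a type and less RNA per cell cannot be told apart. All 9 hepatocyte markers on the array of 10 listed (Alb, Apoa1, Hnf4a and others) were above the median signal in every group. Their summed signal ran from 165935 to 198221 in young wild type, 210672 to 291042 in young dwarf, 164254 to 206160 in old wild type and 170802 to 198668 in old dwarf mice. The cholangiocyte markers Krt19, Krt7 and Epcam were under the floor on all arrays, while 4 of 6 endothelial markers and 5 of 7 macrophage markers were above the median in every group.

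Of the EGFR ligands, 5 of 7 had a probe set and 2 were bright enough to test, and neither passed the limma test between genotypes. Tgfa, which encodes TGF-alpha, had signals of 89.3 to 140 in young wild type, 91.6 to 204 in young dwarf, 120 to 186 in old wild type and 136 to 166 in old dwarf mice. Its log2 difference, dwarf minus wild type, was 0.32 ± 0.32 at 6 months (adjusted p = 0.546) and 0.08 ± 0.37 at 22 months (adjusted p = 0.983). Hbegf, the gene of HB-EGF, ran from 153 to 243, 180 to 349, 185 to 319 and 153 to 220 in the same groups, which overlapped. It differed by 0.32 ± 0.28 (adjusted p = 0.475) and -0.25 ± 0.32 (adjusted p = 0.88). Egf, made chiefly outside the liver, had signals of 15 to 37.5 on 102774_at, all under the floor, and no more than 100.2 on its other probe set. Ereg (epiregulin) did not exceed 69.6 and Btc (betacellulin) did not exceed 63.1 on any array. Areg and Epgn were not analysed here.

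Among the other ErbB receptors and the neuregulins, which are ligands of ERBB3 and ERBB4, 3 of 7 genes had a probe set and only Erbb3 was tested. On 96771_at its mean signal was 2268 ± 551 in young wild type, 2206 ± 863 in young dwarf, 1564 ± 102 in old wild type and 1559 ± 489 in old dwarf mice. The groups overlapped, and the log2 differences between genotypes were -0.10 ± 0.28 (adjusted p = 0.832) and -0.06 ± 0.33 (adjusted p = 0.986). Its second probe set, 101776_at, was under the floor on every array, at 9.9 to 51.2. Erbb4 did not exceed 91.4 and Nrg3 did not exceed 76.4. Erbb2, Nrg1, Nrg2 and Nrg4 were not analysed here.

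Across the whole pathway, 90 genes were listed (ligands, receptors, sheddases, adaptors, kinases, inhibitors, trafficking proteins and early targets), 70 had a probe set and 49 were tested, each by its tested probe set with the highest mean log2 signal. At 6 months 7 of the 49 were higher and 4 lower in dwarf mice, 22.4%, where the background is 13.4% of 5473 genes (6.3% higher and 7.09% lower). Their median log2 difference was 0.14, against 0.09 over all genes. At 22 months only Eps15 was called, and was lower, 2.04% of 49 against 2.87% of all genes (1.48% lower), with medians of 0.01 and 0.00. Scaling each array to a common median shifted the median probe set at 6 months from 0.10 to -0.10. Of 47 pathway genes then tested, 3 were higher (Gab1, Jun and Egr1) and 6 lower. Cav1, higher in the main fit, was not tested with that scaling. Over all probe sets the split went from 460 higher and 502 lower to 188 and 846.

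**Figure D2:**
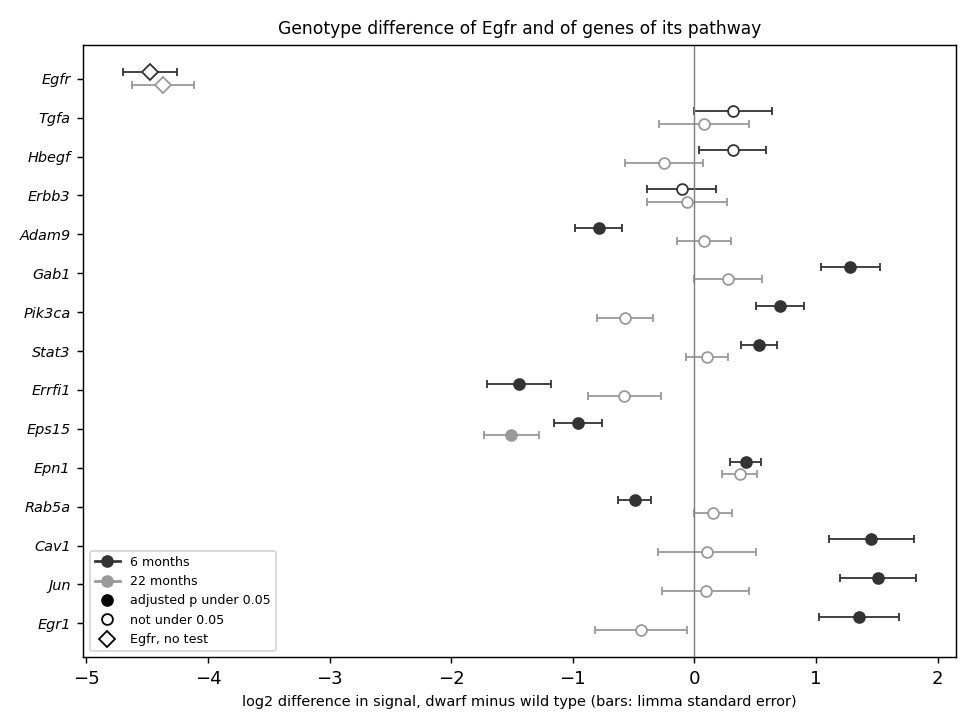
Log2 difference in signal, dwarf minus wild type, at 6 months (dark) and 22 months (grey), with the limma standard error as bars. Filled points had an adjusted p under 0.05, and Egfr (diamonds, 101842_g_at) was not tested. Egfr stands at -4.48 and -4.37, and the tested ligands and Erbb3 lie within 0.32 of 0.

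Errfi1, which encodes MIG6, a feedback inhibitor that binds the EGFR kinase, fell in young dwarf liver on both of its probe sets. On 93975_at the young wild type signals were 7261, 10898, 5865 and 5903 (mice 82, 84, 86 and 88) and the young dwarf signals 3954, 2725, 2682 and 1749 (mice 83, 85, 87 and 89). All dwarf mice were below all wild type mice. The log2 difference was -1.44 ± 0.26 (adjusted p = 0.00171). On 93974_at young wild type mice had 3945, 3851, 1692 and 6449 and young dwarf mice 919.8, 939, 1124 and 635, again without overlap. That difference was -2.02 ± 0.36, or 4.05-fold (adjusted p = 0.00157).

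In old mice the Errfi1 values of the genotypes overlapped. On 93975_at wild type mice 1, 2 and 24 had 5366, 7389.9 and 9885, and dwarf mice 3, 4 and 8 had 3948, 4552 and 6598. The difference was -0.58 ± 0.30 (adjusted p = 0.47), and on 93974_at -0.06 ± 0.42 (adjusted p = 0.988). Old dwarf mice were above young dwarf mice by 0.88 ± 0.28 on 93975_at (adjusted p = 0.0444) and by 1.91 ± 0.39 on 93974_at (adjusted p = 0.00615). The first of these lost its call without dwarf mouse 3, 4, 8, 85, 87 or 89 (adjusted p up to 0.17, without mouse 8). It was also lost without a filter, without the intensity trend and with quantile scaling (adjusted p = 0.0864, 0.0703 and 0.0673), 9 of 15 alternatives in all. The test of whether the genotype difference changed between ages did not pass on either probe set, at 0.87 ± 0.40 (adjusted p = 0.337) and 1.95 ± 0.55 (adjusted p = 0.0934).

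Eps15, an endocytic adaptor first found as a substrate of the EGFR kinase, was lower in dwarf liver at both ages and was the only tested pathway gene called at 22 months. Young wild type mice 82, 84, 86 and 88 had 675, 705, 1013 and 537 on 104367_at, and young dwarf mice 83, 85, 87 and 89 had 330.2, 403, 287 and 479. Old wild type mice lay close together at 1034, 1016 and 1050 (mice 1, 2 and 24), and old dwarf mice at 404, 326 and 367 (mice 3, 4 and 8). The genotypes did not overlap at either age. The difference was -0.96 ± 0.20 at 6 months, 1.94-fold (adjusted p = 0.00442), and -1.51 ± 0.23 at 22 months, 2.84-fold (adjusted p = 0.000819). The ages did not differ in this by the interaction test (-0.55 ± 0.30, adjusted p = 0.424). A second Eps15 probe set, 104006_at, did not exceed 132 and was not tested.

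Gab1, a docking adaptor that links EGFR to PI3K and SHP2, went the other way in young mice. On 160714_at the young wild type signals were 167, 182, 186 and 127 (mice 82, 84, 86 and 88) and the young dwarf signals 417, 304, 455 and 436 (mice 83, 85, 87 and 89). The young groups did not overlap, and the difference was 1.28 ± 0.24, or 2.43-fold (adjusted p = 0.00245). At 22 months wild type mice 1, 2 and 24 had 115, 126 and 199 and dwarf mice 3, 4 and 8 had 152, 211 and 159, which overlapped (0.28 ± 0.28, adjusted p = 0.825). Gab1 was lower in old than in young dwarf mice by 1.21 on the log2 scale (-1.21 ± 0.26, adjusted p = 0.00781). The interaction did not pass (-1.01 ± 0.37, adjusted p = 0.212). Gab1 has a second probe set, 93902_at, whose values are not given here.

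**Figure D3:**
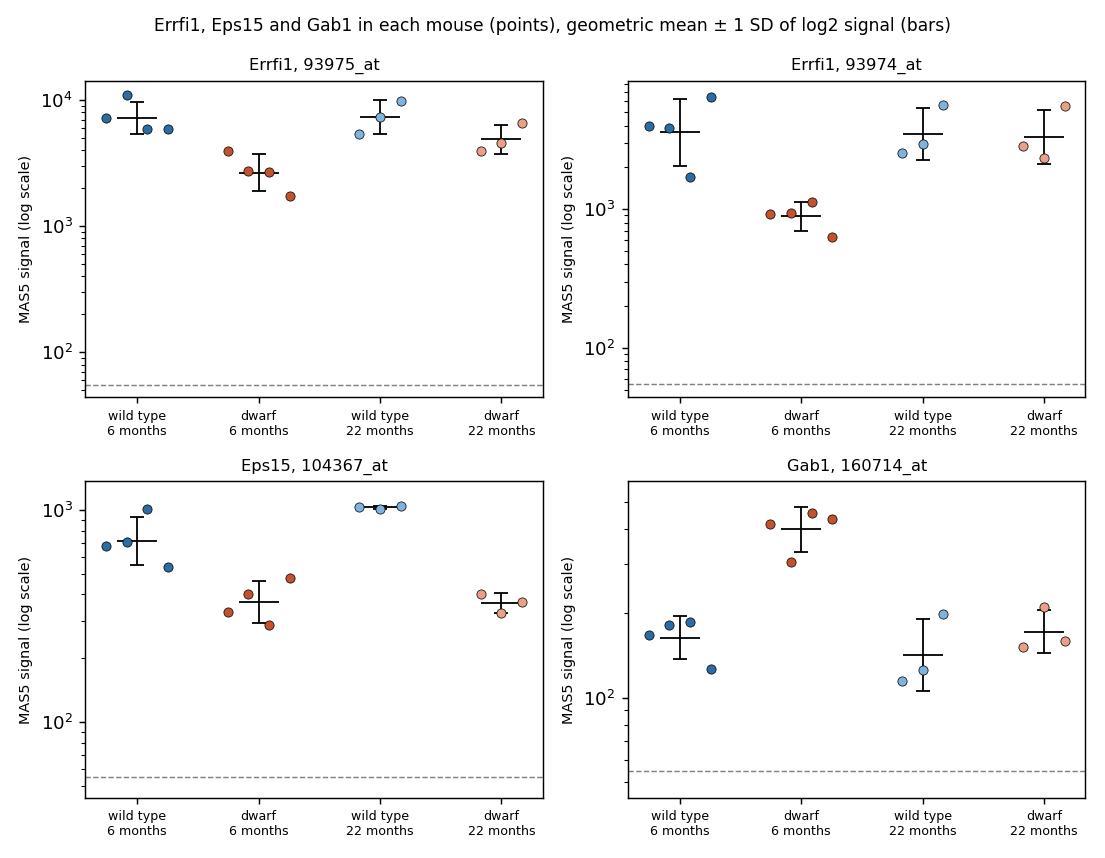
MAS5 signal (log scale) of the 2 Errfi1 probe sets, Eps15 and Gab1, 1 point per mouse, with the geometric mean and 1 SD of the log2 signal as bars and the floor of 54.9 dashed. Young dwarf points lie below young wild type points for Errfi1 and Eps15 and above them for Gab1, and at 22 months only Eps15 shows no overlap.

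The counts at 6 months in the smaller lists stand beside 13.4% of all genes called, 6.3% higher and 7.09% lower, and with 13 or fewer genes tested in each nothing is read from a share alone. Of the remaining tested genes, sheddases and ligand processing had 1 of 3 lower at 6 months. It was Adam9, a membrane metalloprotease (-0.79 ± 0.19, adjusted p = 0.0127), with 454 to 647 in young wild type and 249.7 to 398 in young dwarf mice. At 22 months Adam9 differed by 0.08 ± 0.22 (adjusted p = 0.969). Adaptors and Ras to ERK signalling had 1 of 10 called, which was Gab1. Of the kinases and STAT factors, 2 of 10 were higher. Pik3ca, the catalytic subunit p110-alpha of PI3K, rose by 0.70 ± 0.20 on 104461_at (adjusted p = 0.0272) and was at 0.29 ± 0.35 on 92452_at (adjusted p = 0.617). Stat3, a transcription factor that EGFR and cytokine receptors activate, rose by 0.53 ± 0.15 on 99099_at (adjusted p = 0.0286) and was at 0.24 ± 0.22 on 99100_at (adjusted p = 0.51). Both calls were lost with median scaling, at 0.51 (adjusted p = 0.0909) for Pik3ca and 0.33 (adjusted p = 0.18) for Stat3. Pik3ca also lost its call without mouse 82, 85, 86, 87, 88 or 89 (values of 0.60 to 0.70), and Stat3 without mouse 84, 86, 87, 88 or 89 (0.42 to 0.53). Fits of only the compared groups lost both calls too (adjusted p = 0.0734 and 0.061), and quantile scaling lost that of Pik3ca (adjusted p = 0.0517).

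Inhibitors and trafficking proteins had 2 higher and 3 lower of 13 at 6 months, 38.5% against 13.4% of all genes. Beside Errfi1 and Eps15, Rab5a, the GTPase of early endosomes, was lower (-0.49 ± 0.14, adjusted p = 0.0262). It lost its call without mouse 86 (-0.37, adjusted p = 0.0796), 87 or 89 (both -0.49), and with the compared groups alone (adjusted p = 0.0684). Cav1, the caveolar coat protein, was higher (1.45 ± 0.35, adjusted p = 0.0118), with 26.5 to 96.3 in young wild type and 157 to 293 in young dwarf mice on 160280_at. This probe set did not pass the filter with quantile or median scaling, so its call was not checked there. Endothelial cells are rich in Cav1, and the 6 endothelial markers, Kdr among them, summed to 3044 to 3845 in young wild type and 3800.0 to 4739 in young dwarf mice, with their part in the result not tested. At 22 months those sums were 3571 to 3796 and 2976 to 3457, and Cav1 differed by 0.11 ± 0.40 (adjusted p = 0.975). The last, Epn1, an endocytic adaptor, fell outside the rule for named genes and is given for completeness of the count (0.42 ± 0.12, adjusted p = 0.035).

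Among immediate early targets, genes that growth factors switch on within minutes, 2 of 10 rose in young dwarf mice, where 6.3% of all genes were higher. So few genes do not set the list apart from that background. Jun had signals of 94.9, 53.8, 126 and 70.8 in young wild type mice 82, 84, 86 and 88 and 209.8, 336, 188 and 231 in young dwarf mice 83, 85, 87 and 89. It differed by 1.51 ± 0.31 (adjusted p = 0.00451). Egr1 ran from 137 to 285 in young wild type and from 432 to 706 in young dwarf mice (1.36 ± 0.33, adjusted p = 0.0122). At 22 months neither passed. Egr1 was at -0.44 ± 0.38 there, with old wild type mice at 796, 753 and 243, and its interaction was -1.80 ± 0.50 (adjusted p = 0.0868).

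Pathway genes were also tested for age. In dwarf mice 5 were higher and 9 lower in old animals, 28.6% of 49, where 16.4% of all genes passed (7.93% higher and 8.46% lower). The higher ones were Dusp6, Errfi1, Ier2, Pik3r1 and Shc1, and Gab1, Pik3ca and Stat3 were among the lower ones. With median scaling the split turned to 7 higher and 4 lower of 47 tested. That over all probe sets went from 574 higher and 619 lower to 925 and 242, and their median from -0.09 to 0.12. The count of pathway genes fell to 5 without dwarf mouse 3, 6 without mouse 4 and 8 without mouse 8 or 85. In wild type mice 1 was higher and 1 lower, 4.08% against 2.48% of all genes (1.41% higher and 1.08% lower). These were Dusp6, an ERK phosphatase (1.33 ± 0.28, adjusted p = 0.0229), and Fosl2, an AP-1 subunit (-2.53 ± 0.56, adjusted p = 0.0281), named because the count is small. The limma count in wild type mice was 0 without mouse 1 or 84, where 9 and 10 had an unadjusted p under 0.05, 1 without mouse 2, 82 or 86, and 5 without mouse 88. The interaction passed for 1 of 49, Pik3ca (-1.27 ± 0.30, adjusted p = 0.0379), where 2.34% of all genes passed (0.585% lower). That call was lost in 15 of 20 alternatives, 12 of them with 1 mouse left out (adjusted p up to 0.105).

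Other growth factor and hormone receptors of the liver were tested beside Egfr. Of 10 tested, 3 were higher and 1 lower in young dwarf mice, 40% where 13.4% of all genes were called (6.3% higher and 7.09% lower), with a median log2 difference of 0.44 against 0.09 over all genes. Pdgfra, a PDGF receptor of stromal cells, was higher on 95079_at (1.82 ± 0.36, adjusted p = 0.00326) and at 0.33 ± 0.42 on 160332_at (adjusted p = 0.628). Igf1r, the IGF-1 receptor, was higher by 1.75 ± 0.48 (adjusted p = 0.0251), and Kdr, the VEGF receptor of endothelial cells, by 0.79 ± 0.21 (adjusted p = 0.0217). Igf1r lost its call without mouse 82, 85, 86 or 87 (1.51 to 1.68), and Kdr without mouse 82, 87 or 89 (0.61 to 0.74). Kdr also lost its call with median scaling (0.59, adjusted p = 0.0554), and Igf1r without a filter (adjusted p = 0.0597). The 5 stellate and fibroblast markers on the array summed to 490 to 703 in young wild type and 629 to 997 in young dwarf mice, and their part in the Pdgfra value was not tested. At 22 months 1 of 10 was higher, Igf2r, the receptor that clears IGF-2 (0.61 ± 0.15, adjusted p = 0.0407), where 2.87% of all genes were called and 1.39% were higher.

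Ghr, the growth hormone receptor, was the 1 other receptor of that list that was lower at 6 months. On 99108_s_at it ran from 3502 to 4393 in young wild type and from 2441 to 2978 in young dwarf mice (-0.56 ± 0.12, 1.48-fold, adjusted p = 0.00528). At 22 months it ran from 2451 to 2687 in wild type and from 2989 to 3573 in dwarf mice (0.32 ± 0.14, adjusted p = 0.331). The genotype difference of Ghr changed with age (0.88 ± 0.18, adjusted p = 0.0225), a call lost without mouse 3 (0.80) or 24 (0.84) and without the intensity trend (adjusted p = 0.0559). Its other probe set, 99107_at, had -0.91 ± 0.35 at 6 months (adjusted p = 0.095) and 0.26 ± 0.40 at 22 months (adjusted p = 0.915).

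The growth hormone axis, listed for comparison, had 1 higher and 3 lower of 11 tested genes at 6 months (36.4%, against 13.4% of all genes) and 3 lower at 22 months (27.3%, against 2.87%). The higher one was Igfbp1, an IGF-binding protein that the liver secretes, read on 103896_f_at. That suffix is for sets that can match a whole gene family, and values of the other Igfbp1 set, 103897_r_at, are not given here. On 103896_f_at the rise was as follows. Igfbp1 ran from 158 to 337 in young wild type and from 3520 to 16385 in young dwarf mice (5.07 ± 0.68, 33.6-fold, adjusted p = 0.000127). At 22 months it ran from 107 to 1683 in wild type and from 1773 to 5280 in dwarf mice, without overlap, and did not pass (2.56 ± 0.79, adjusted p = 0.111). Igf1, the hormone's main circulating effector, was lower by 1.80 and 2.08 on the log2 scale at the ages of 6 and 22 months (-1.80 ± 0.16 and -2.08 ± 0.19, adjusted p = 2.51e-06 and 4.97e-06) on 95545_at. Its probe set 95546_g_at gave -3.96 ± 0.28 and -3.91 ± 0.32. Igfals, the acid-labile subunit of the circulating IGF complex, went from -5.19 ± 0.30 to -3.14 ± 0.34. Socs2, a feedback inhibitor induced by growth hormone, went from -0.89 ± 0.29 (adjusted p = 0.0569) to -2.59 ± 0.34 (adjusted p = 0.000217). The test of a change of the genotype difference with age passed for Igfals (2.05 ± 0.45, adjusted p = 0.0294) and not for Socs2 (-1.70 ± 0.45, adjusted p = 0.0671). The Igfals call was lost in 9 of 21 alternatives, among them without mouse 1, 3, 8, 24, 82, 86 or 89 (1.75 to 2.07, adjusted p up to 0.0867).

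The genes whose pattern was most like that of Egfr were found by Pearson r of floored log2 signal with 101842_g_at over the 14 arrays, among 6468 tested probe sets with 1 gene symbol. Above 0.9 lay 32 probe sets, and below -0.9 lay 20. The 10 most alike genes were Hsd3b5, a liver steroid enzyme (r = 0.985), Mup5 (0.979), Zap70 (0.976), Mup3 (0.974), Nat8f1 (0.969), Igf1 (0.963), Cyp2f2, a cytochrome P450 (0.959), Keg1 (0.952), Csrp3, a LIM domain protein of muscle (0.950), and C9, the last component of the complement pore (0.948). The 5 most opposite were Cyp2b13, another P450 (-0.965), the sulfotransferase Sult2a2 (-0.953), Pcp4l1 (-0.951), Slc16a7, a monocarboxylate transporter (-0.949), and Gstm1, a glutathione transferase (-0.942). Any gene that separates the genotypes sharply scores high in this measure, since the arrays form separate clusters by genotype.

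**Figure D4:**
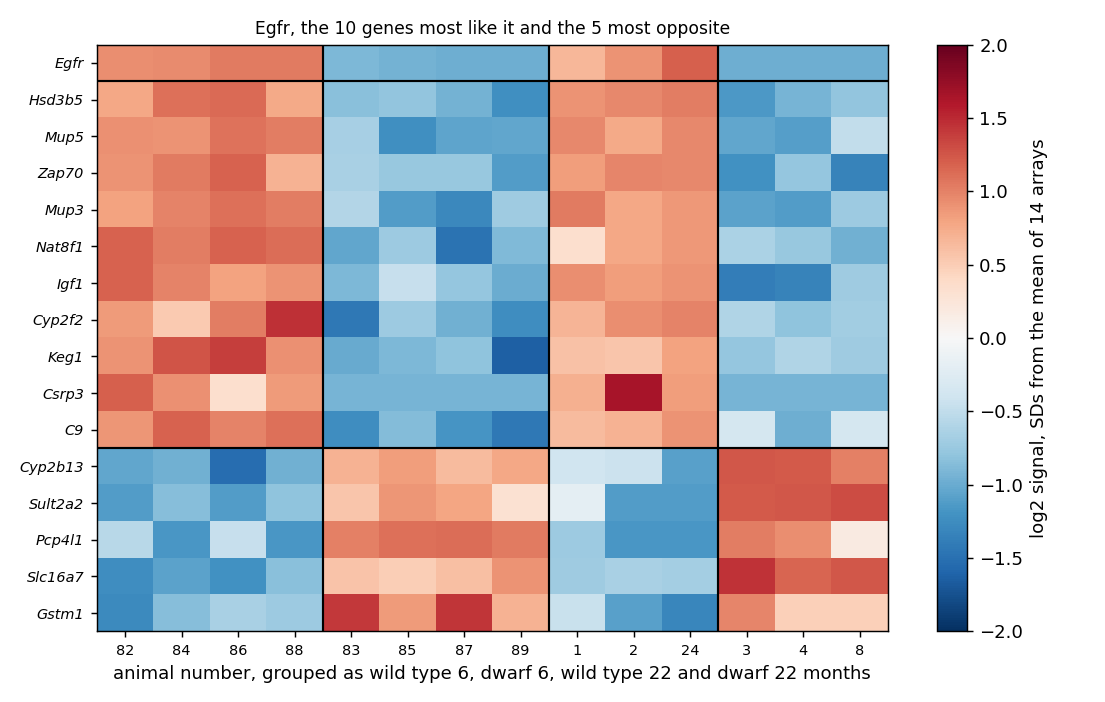
Floored log2 signal of Egfr (101842_g_at), the 10 genes most like it and the 5 most opposite, by mouse, in SDs from each gene's mean over 14 arrays (red higher, blue lower). Mice are grouped as wild type 6, dwarf 6, wild type 22 and dwarf 22 months. The upper rows are red in wild type and blue in dwarf mice at both ages, and the lower 5 rows are the reverse.

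These genes differed in size and in how they stood in old mice. Hsd3b5 had mean signals of 7115 ± 3025 in young wild type, 104 ± 50.2 in young dwarf, 6969 ± 979 in old wild type and 106 ± 40.3 in old dwarf mice. That was a log2 difference of -6.01 ± 0.34 at 6 and -6.10 ± 0.39 at 22 months. The Mup3 and Mup5 probe sets carry the suffix for sets that can match a whole gene family, and they differed by -2.03 ± 0.16 and -3.36 ± 0.22 at 6 months and by -1.99 ± 0.19 and -3.02 ± 0.25 at 22 months. The Gstm1 probe set, 93543_f_at, carries the same suffix. Keg1 was at -3.12 ± 0.23 and -1.90 ± 0.26, and C9 at -2.68 ± 0.18 and -1.57 ± 0.21. Csrp3 was under the floor in all 7 dwarf mice, as Egfr was on 101841_at.

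Zap70, a kinase of T cells, stood behind only Hsd3b5 and Mup5 in likeness on 93662_s_at, a set whose suffix says that it can match more than 1 transcript. It had 878 to 1708 in young wild type and 74.2 to 140 in young dwarf mice, and 1049 to 1298 and 55 to 117 in the old groups. The 6 B and T cell markers on the array of 8 listed moved otherwise, summing to 1214 to 1755 and 2120 to 2246 in the young groups and to 1887 to 2156 and 1323 to 2153 in the old ones. The 3 exocrine pancreas markers on the array of 6 listed summed to 1736 to 2615 and 657 to 813 in the young groups and to 1900.0 to 2423 and 651 to 1193 in the old ones. Cela1 made up most of that difference, with means of 1879 ± 430, 454 ± 57.9, 1854 ± 345 and 614 ± 275 in young wild type, young dwarf, old wild type and old dwarf mice. In the same order Cela2a had means of 219 ± 16.9, 227 ± 36.7, 199 ± 66.9 and 198 ± 54.7, and Prss2 had 71.0 ± 46.5, 64.5 ± 46.8, 60.5 ± 28.7 and 104.6 ± 2.63. The part of other cells in these values was not tested.

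Within wild type mice the likeness was uneven. After the mean of each age group was taken off, the r with Egfr over the 7 wild type mice was 0.86 for Nat8f1 and 0.66 for C9, and it was 0.26 for Hsd3b5, -0.24 for Mup3 and -0.28 for Igf1. For the opposite genes it was -0.75 for Cyp2b13, -0.74 for Sult2a2, -0.60 for Gstm1 and 0.20 for Slc16a7. With 7 animals these values are loose descriptions. Of the 10 alike genes 9 had a promoter window, and TTCNNNGAA was in 1 of them, that of Keg1, against 7.02% of all windows. The other motifs looked for in the Egfr window were in 0 to 3 of these 9. Nothing is read from such small counts.

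The arrays were close in scale, though not evenly over the groups. Their median signal ran from 166.8 to 221, from 19.5% to 27.9% of values lay under the floor, and the correlation of array pairs on floored log2 signal ran from 0.892 to 0.974. At 6 months the dwarf arrays had medians of 186.85 to 221 and the wild type arrays 174.85 to 183.2. In that order 19.5% to 24.5% and 24.6% to 26.8% of their values lay under the floor. Scale thus differed with genotype at 6 months, and its part in those contrasts was read only through the other scalings. The 18S control differed with age and in mouse 88, and its part in the age contrasts was not tested: it read 340 to 4853 at 22 months, 588 in mouse 88 and 60.8 to 217 in the other young mice. Values given with ± and no unit are log2 differences with the limma standard error, and mean signals carry the SD over mice.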

How the data were processed

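The authors deposited 1 signal intensity per probe set and array, on a linear scale. Per the submitters' processing notes the tool was MAS5 (version not given in the sources used here). The arrays already shared a common mean signal once the lowest and highest 2% were left out, though not a common median. Detection calls were not used. Intensities under 54.9, the pooled 25th percentile, were raised to that floor and log2 was taken. After 66 control probe sets were removed, a probe set was tested where its signal was above 184.8, the pooled median, on 3 or more arrays. This left 7227 probe sets of 5473 genes, with all 3 Egfr sets among them through their wild type values. A model with 1 mean for each of the 4 groups was fitted to all 14 arrays in limma 3.58.1 (R 4.3.3, eBayes with trend), with Benjamini-Hochberg adjustment over all tested probe sets in each contrast and a threshold of 0.05. Groups and mouse numbers came from the labels, and each array is 1 animal. The code was tested on simulated data.

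Gene symbols came from the platform annotation: 10855 probe sets had 1 symbol, 396 several and 1237 none listed, and 10839 of the first were matched in RefSeq. Promoter windows are from RefSeq, without the bases after the start. Egfr and the pathway lists were chosen with earlier results of these data known. Genes were named by a rule: each Egfr set, the ligands and ErbB genes on the array, up to 4 called members of every other list with the smallest genotype p, the 10 genes most like Egfr and 5 most opposite, and Igf1, Igfals and Socs2. Genes named outside it were chosen after their values were seen. Some named genes have further probe sets whose values are not given here, among them Cav1 (97849_at), Egr1 (161802_i_at), Igfals (162450_f_at) and Pdgfra (161202_r_at). Other settings tried were scaling by quantiles or by the median, other floors and filters, no trend, fits of only the groups compared, and fits without each array in turn.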

Additional observations from a re-analysis of the deposited data

Results flagged for a closer look

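The genotype difference changed between the ages, by the limma interaction term, for 4 of the genes named beside Egfr. For Igfals, the acid-labile subunit, the log2 difference went from -5.19 to -3.14, a change of 2.05 (adjusted p = 0.0294). For Ghr on 99108_s_at it went from -0.56 to 0.32, a change of 0.88 (adjusted p = 0.0225). For C9, a complement component, it went from -2.68 to -1.57, a change of 1.10 (adjusted p = 0.0475). For Pik3ca, a subunit of PI3K, it went from 0.70 to -0.57, a change of -1.27 (adjusted p = 0.0379). C9 and Pik3ca lost this call under most alternatives, 15 of 21 and 15 of 20 (adjusted p up to 0.147 and 0.105), and Igfals and Ghr under 9 and 3 of 21 (up to 0.0867 and 0.0754). Cyp2b13, a cytochrome P450, had a signal of 24.8 in wild type mouse 86, raised to the floor of 54.9 for this check. On floored log2 signal that mouse stood apart from the other young wild type mice by 0.872 of the group's range, above the critical value of Dixon's test. The check was set for 76 groups of 4, and those wholly at the floor could not be checked. Of the groups checked, chance sets about 1 in 20 apart.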

How the results depend on the processing

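The Egfr difference between genotypes kept its direction on all 3 probe sets under every alternative that tested them; 101840_at was not tested with a filter at the 75th percentile. On 101842_g_at its size moved with the floor: at 6 months it was -4.64 with a floor at the 10th percentile and -4.26 with no floor and a pseudocount of 16, and at 22 months -4.81 with the lower floor. On 101841_at it moved further, to -5.15 at 6 and -5.66 at 22 months with the lower floor. With the pseudocount 101841_at gave -4.52 and -5.19. Leaving out each mouse gave -4.52 to -4.44 at 6 months and -4.67 to -4.05 at 22 months on 101842_g_at. The age difference on this probe set in wild type mice ran from -0.48 to 0.14 and never passed.

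Pathway genes called at 6 months numbered 7 of 49 tested with the compared groups alone, 7 of 29 tested with the stricter filter, and 8 to 12 with 1 mouse left out. For age in dwarf mice there were 8 of 68 tested without a filter, 9 of 49 without the trend and 5 to 17 with 1 mouse left out. For age in wild type mice limma called 0 without a filter (14 had an unadjusted p under 0.05) and 0 to 5 with 1 mouse left out. Probe sets called for age in wild type mice numbered 76 with the compared groups alone, 106 with median scaling, 107 without a filter and 90 without the trend. With 1 mouse left out they ran from 60 to 457, the last without mouse 88. At 6 months 630 were called with the compared groups alone. Leaving out 1 mouse gave 521 to 1451 for age in dwarf mice, 711 to 1098 for genotype at 6 months and 127 to 184 at 22 months. The causes were not tested.

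Of 31 named genes called at 6 months, 5 lost the call under some alternative that tested them (Igf1r, Kdr, Pik3ca, Rab5a and Stat3). A probe set that did not pass the filter in a setting was not tested there and could not lose its call. Cav1 was tested in 13 of 16 alternatives, and not with quantile or median scaling. At 22 months 1 of 18 did (Gstm1, adjusted p up to 0.0963). Over all genes 13.4% and 2.87% were called at these ages. Many of the named genes were named because they passed a genotype test or because their signal followed that of Egfr. The counts called and kept follow largely from that choice, and nothing is read from them. Of the 4 interactions, all 4 lost theirs under some alternative: Pik3ca in 15 of 20 (adjusted p up to 0.105), C9 in 15 of 21 (0.147), Igfals in 9 of 21 (0.0867) and Ghr in 3 of 21 (0.0754). No called gene reversed. The labels name no pairs of mice, so no paired analysis was run. Signals under the floor limit what the dwarf Egfr values can show.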
